A study of Mus musculus with 3 samples.

Results

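The Gimap family GTPases (GTPases of immunity-associated proteins) were examined in single-cell RNA libraries of LSK cells of mouse bone marrow. This sorted fraction lacks lineage markers, carries Sca-1 and Kit, and is enriched for blood stem and multipotent progenitor cells. The members were Gimap1, Gimap4, Gimap5, Gimap6, Gimap8 and Gimap9, which are 6 of the 14721 genes in the deposited count table. They were picked by name, with their levels in these libraries already known, so the levels below are a description. The table also holds Gimap3 and Gimap7, whose values are given beside the members'. There were 3 libraries, made with the Chromium 3′ v2 chemistry, and each genotype had 1. The DKO library came from Spop(D/D) Myd88(-/-) marrow, the KO library from Spop(D/D) Myd88(+/+) marrow and the WT library from Spop(+/+) Myd88(+/+) marrow. The Spop deletion is thus shared by DKO and KO. Age, the driver of the deletion, any treatment and the number of animals pooled were not given in the sources used here. With 1 library per genotype there is no replicate and no test between genotypes, and every interval below covers counting error only.

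GIMAP proteins are GTP-binding proteins with a conserved guanine nucleotide-binding domain, and many of them sit on membranes of lysosomes, the endoplasmic reticulum or mitochondria. They are best known for keeping lymphocytes alive. In mice, Gimap1 is needed for the survival of mature B and T cells, and loss of Gimap5 causes lymphopenia and impairs haematopoietic stem cells, in which GIMAP5 has been placed with the chaperone HSC70 and the survival protein MCL1. GIMAP6 binds the autophagy protein GABARAPL2, GIMAP4 has been tied to the timing of T cell death, and GIMAP8 to the survival of B cells. SPOP selects proteins for a CUL3-based ubiquitin ligase, and MyD88 relays signals from Toll-like receptors and the interleukin-1 receptor.

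The genes form 1 cluster on mouse chromosome 6 (GRCm38), in which the 8 Gimap genes span 123.618 kb between positions 48647234 and 48770851. All 6 members are annotated as protein-coding in GENCODE vM21. Gimap8 (48647234 to 48660875), Gimap9 (48676129 to 48679114), Gimap4 (48684549 to 48692060), Gimap1 (48739054 to 48743795) and Gimap5 (48746197 to 48754210) lie on the plus strand, and Gimap6 (48701582 to 48708225) on the minus strand. The promoter windows of 4 members are shown because these genes differed in how widely they were detected among progenitor classes, from Gimap1, Gimap6 and Gimap9, with UMIs in most classes, to Gimap4, highest in B lineage-like and stem cell-like cells. Each window is RefSeq sequence of GRCm38.p6, from 250 bases before to 50 bases after the start of the RefSeq gene, which can differ by some bases from the GENCODE start given above, read 5′ to 3′ on the gene's strand. Capitals mark GGAAG on either strand, the core letters bound by ETS factors such as PU.1 and ETS1.
Gimap1, chr6:48738797-48739096, plus strand: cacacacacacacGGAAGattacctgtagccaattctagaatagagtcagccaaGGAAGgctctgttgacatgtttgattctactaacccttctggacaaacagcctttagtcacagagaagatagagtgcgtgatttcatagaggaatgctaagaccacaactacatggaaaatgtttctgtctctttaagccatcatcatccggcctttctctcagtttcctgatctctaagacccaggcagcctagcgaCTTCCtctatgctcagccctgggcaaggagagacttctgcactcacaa
Gimap4, chr6:48684328-48684627, plus strand: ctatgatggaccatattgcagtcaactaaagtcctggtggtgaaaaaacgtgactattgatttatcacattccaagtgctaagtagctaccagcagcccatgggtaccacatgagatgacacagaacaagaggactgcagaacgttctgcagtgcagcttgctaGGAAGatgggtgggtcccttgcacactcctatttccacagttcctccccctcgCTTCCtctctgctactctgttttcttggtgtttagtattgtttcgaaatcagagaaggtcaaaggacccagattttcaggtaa
Gimap6, chr6:48708195-48708494, minus strand: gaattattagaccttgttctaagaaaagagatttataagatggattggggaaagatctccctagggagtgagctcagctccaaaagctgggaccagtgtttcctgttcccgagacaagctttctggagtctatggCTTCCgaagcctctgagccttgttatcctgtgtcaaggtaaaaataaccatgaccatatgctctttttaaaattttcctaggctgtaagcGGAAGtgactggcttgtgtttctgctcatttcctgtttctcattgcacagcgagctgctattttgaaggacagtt
Gimap9, chr6:48675885-48676184, plus strand: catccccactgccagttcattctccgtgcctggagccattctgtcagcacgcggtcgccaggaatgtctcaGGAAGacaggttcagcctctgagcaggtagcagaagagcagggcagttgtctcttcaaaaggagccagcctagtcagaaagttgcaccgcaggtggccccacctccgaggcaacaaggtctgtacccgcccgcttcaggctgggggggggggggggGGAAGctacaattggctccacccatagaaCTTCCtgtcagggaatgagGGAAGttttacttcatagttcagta

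All 8 Gimap genes matched the promoter table, in 9 windows, because Gimap8 has 2 overlapping ones. GGAAG was present in all 9 windows, with 19 matches when those shared by the overlapping Gimap8 windows are counted in both, and 71.4% of 32851 promoter windows of the same length hold it on at least 1 strand. The printed windows held 3 matches for Gimap1, 2 for Gimap4, 2 for Gimap6 and 4 for Gimap9. The RUNX letters TGTGGT were found in 3 of the 8 genes, Gimap1, Gimap4 and Gimap7, against 16.8% of all windows. The GATA letters AGATAA and the interferon-sensitive element core were found in 0 of the 8 genes, against 11.2% and 3.44% of all windows. TATAAA was found in Gimap6 alone and CACCTG in Gimap9 alone, against 13.6% and 20.2% of all windows. Both strands were searched, and no match of 1 motif overlapped a match of another.

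The libraries held 8184 DKO, 4920 KO and 8147 WT cells, with 109920419, 101393024 and 85700749 UMIs (unique molecular identifiers, 1 per captured transcript) and medians of 12404.5, 17319 and 9245 UMIs per cell. KO stood apart: 1576 of its cells fell in a cluster led by Vldlr and Ifitm1, 1434 in one led by Ms4a3 and Elane and 989 in an erythroid-like class, and these 3 groups held at most 50 cells of DKO or of WT. Libraries shared between 46 and 83 cell barcodes per pair. In UMIs per 1000000 UMIs of a library (CPM), Myd88 stood at 4.47 in DKO, 25.8 in KO and 13.7 in WT, and Spop at 77.1, 63.1 and 70.7. Reads come from transcript 3′ ends, so the deletions need not remove them. Ly6a, which encodes the Sca-1 of the gate, stood at 89.5 CPM in DKO, 85.1 in KO and 90.4 in WT, and Kit at 65.9, 41.5 and 94.8. Xist stood at 1537 CPM in DKO, 0 in KO and 0.187 in WT, and the Y-linked Ddx3y at 0, 32.2 and 43.9, so sex and genotype cannot be told apart in either comparison with DKO.

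Every member was lower in the KO library than in the WT library. Levels are in CPM, with an exact Poisson 95% interval in parentheses. Together the 6 members stood at 83.9 CPM in KO (82.2 to 85.7) and 398 CPM in WT (393 to 402), which is 4.74-fold lower in KO (exact conditional binomial 95% interval 4.63 to 4.85). Gimap1 stood at 38.8 CPM in KO (37.5 to 39.98) and 170 CPM in WT (167 to 173), 4.39-fold lower. Gimap5, the member with a known role in stem cells, stood at 7.74 CPM in KO (7.21 to 8.30) and 36.0 CPM in WT (34.7 to 37.3), 4.65-fold lower.

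Gimap6, the autophagy-linked member, stood at 17.7 CPM in KO (16.8 to 18.5) and 125 CPM in WT (123 to 127), 7.08-fold lower (6.74 to 7.45). Gimap9 had the smallest fold difference, with 18.4 CPM in KO (17.5 to 19.2) and 49.2 CPM in WT (47.7 to 50.7), 2.68-fold lower (2.54 to 2.83). Over all cells the widest gap was that of Gimap4, with 62 UMIs or 0.611 CPM in KO (0.469 to 0.784) and 945 UMIs or 11.03 CPM in WT (10.3 to 11.8), 18.0-fold lower (13.9 to 23.7). Without the erythroid-like, mature neutrophil-like and B lineage-like classes its KO/WT ratio was 0.177 in place of 0.0555. Gimap6 and Gimap8 then had ratios of 0.166 and 0.166, so that Gimap4 no longer had the widest gap. The Ms4a3- and Elane-led cells, which took no class name, were kept in that setting. Gimap8 stood at 0.819 CPM in KO (0.652 to 1.01) and 6.25 CPM in WT (5.74 to 6.81), 7.64-fold lower. The intervals of KO and WT did not overlap for any of the 6 members. The share of all genes with intervals apart was not counted, so this is not read as particular to the members. Of the family genes outside the members, Gimap7 stood at 1.20 CPM in KO and 14.4 CPM in WT, and Gimap3, a relative of Gimap5 in mouse T cells, at 0.158 CPM in KO and 1.62 CPM in WT.

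Over KO and WT, 4 of the 6 members averaged at least 20 CPM, and all 4 were at least 1.5-fold lower in KO. The same held for 12.3% of the 5141 genes at that level, while 8.85% were at least 1.5-fold higher. The members were chosen with this contrast known, so the count carries no weight. Gimap4 and Gimap8 were below the level filter. Among the 5141 genes, ranked from the lowest KO/WT ratio, Gimap6 was at place 20, Gimap5 at 30, Gimap1 at 35 and Gimap9 at 91. With TMM scaling the split of all genes changed from the 455 higher and 630 lower in KO to 869 higher and 411 lower, with a median log2 ratio of 0.17 in place of 0.02, and the members' summed log2 ratio was -2.09 in place of -2.24.

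Cell type markers moved with this difference. The 11 erythroid markers, all in the table, summed to 1114 CPM in KO and 167 CPM in WT, with 7 of the 7 at 20 CPM or more higher in KO. The 9 neutrophil progenitor markers summed to 7533 CPM in KO and 1068 CPM in WT, with 5 of 7 higher. The 11 B lineage markers summed to 41.1 CPM in KO, where 3 were at 0, and 820 CPM in WT, with 8 of 8 lower in KO. The 9 lymphoid-primed markers summed to 200 CPM in KO and 1123 CPM in WT, with 7 of 7 lower in KO. The 14 stem cell markers summed to 1928 CPM in KO and 1362 CPM in WT, with 1 of 7 higher and 4 lower in KO. The median log2 ratio of those 7 was -1.29, so the higher sum does not hold for most of them. Hlf stood at 31.0 CPM in KO and 118 CPM in WT, and Mecom, below that level, at 7.85 and 30.8 CPM. Each library was also weighted to the WT mix of the 4 clusters with at least 20 cells in every library. The members' KO/WT ratio was then 0.881, and 0 of 4 members at the level were past 1.5-fold. The share of all genes past 1.5-fold was not computed with that weighting. Those 4 clusters hold 44.2% of KO and 25.1% of WT cells. Most of the weight falls on the lymphoid-primed-like class, with 1549 WT but 76 KO cells. Other clusterings gave lower KO/WT ratios for that class. The megakaryocyte progenitor-like class has 428 WT cells, and the remaining clusters have 46 and 21. Stem cell-like, B lineage-like and Vldlr- and Ifitm1-led cells are left out, so the ratio does not describe the whole libraries. Without the lineage classes and the clusters with lineage markers the ratio was 0.489.

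The members were higher in the DKO library than in the KO library. Their sum was 290 CPM in DKO (287 to 294) and 83.9 CPM in KO, a DKO/KO ratio of 3.46 (3.38 to 3.54). Gimap6 stood at 85.7 CPM in DKO (84.0 to 87.5) and 17.7 CPM in KO, a ratio of 4.86 (4.62 to 5.11). Gimap5 stood at 31.4 CPM in DKO (30.3 to 32.4) and 7.74 CPM in KO, a ratio of 4.05 (3.75 to 4.38). The DKO and KO intervals did not overlap for any member, and here too the share of all genes with intervals apart was not counted. The ratio was 3.10 for Gimap1, with 120 CPM in DKO (118 to 122), and 2.60 for Gimap9, with 47.7 CPM in DKO (46.4 to 49.0). Gimap4 had 287 UMIs in DKO and 62 in KO, a ratio of 4.27 (3.24 to 5.71), and Gimap8 had 291 and 83 UMIs, a ratio of 3.23 (2.53 to 4.18). Gimap7 stood at 7.71 CPM in DKO and 1.20 CPM in KO, a ratio of 6.41 (5.30 to 7.82). Over DKO and KO, 3 of the 6 members averaged 20 CPM or more, and the 3 were at least 1.5-fold higher in DKO, as were 13.4% of 5163 genes, while 6.02% were that much lower. Weighted to the WT mix as above, the summed DKO/KO ratio was 1.06, and it was 1.70 without lineage classes and lineage-marker clusters. With TMM scaling, 374 genes were higher and 664 lower in DKO, in place of 692 and 311, and the summed log2 ratio was 1.60 in place of 1.79. This comparison shares the KO library with the one above.

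Against WT, the DKO library was lower by less, and unevenly between members. The sum of 290 CPM in DKO against 398 CPM in WT gave a DKO/WT ratio of 0.730 (0.719 to 0.742). Gimap9 stood at 47.7 CPM in DKO and 49.2 CPM in WT, a ratio of 0.970 whose interval (0.932 to 1.01) includes 1. Under 11 other settings it lay between 0.941 and 1.24, above 1 in 5 of them. Gimap5 had a ratio of 0.872 (0.830 to 0.915), Gimap1 of 0.707 (0.690 to 0.724) and Gimap6 of 0.686 (0.667 to 0.705). Over all cells Gimap4 lay furthest below WT, with 2.61 CPM in DKO (2.32 to 2.93) and 11.03 CPM in WT, a ratio of 0.237 (0.207 to 0.271). Without the erythroid-like, mature neutrophil-like and B lineage-like classes, Gimap4 stood at 2.40 CPM in DKO and 3.21 CPM in WT, a ratio of 0.747. Gimap8, at 0.453, was then furthest below WT. Gimap8 stood at 2.65 CPM in DKO (2.35 to 2.97) and 6.25 CPM in WT, a ratio of 0.423 (0.366 to 0.489). Of the 4 members at 20 CPM or more, 0 were past 1.5-fold, against 1.87% of 5307 genes lower and 2.43% higher in DKO. At a level of 5 CPM the count was 1 of 5 members lower, against 3.55% of 9205 genes. With TMM scaling the split of all genes was 101 higher and 119 lower in DKO, in place of 129 and 98. The B lineage markers summed to 58.9 CPM in DKO and 820 CPM in WT.

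**Figure D1:**
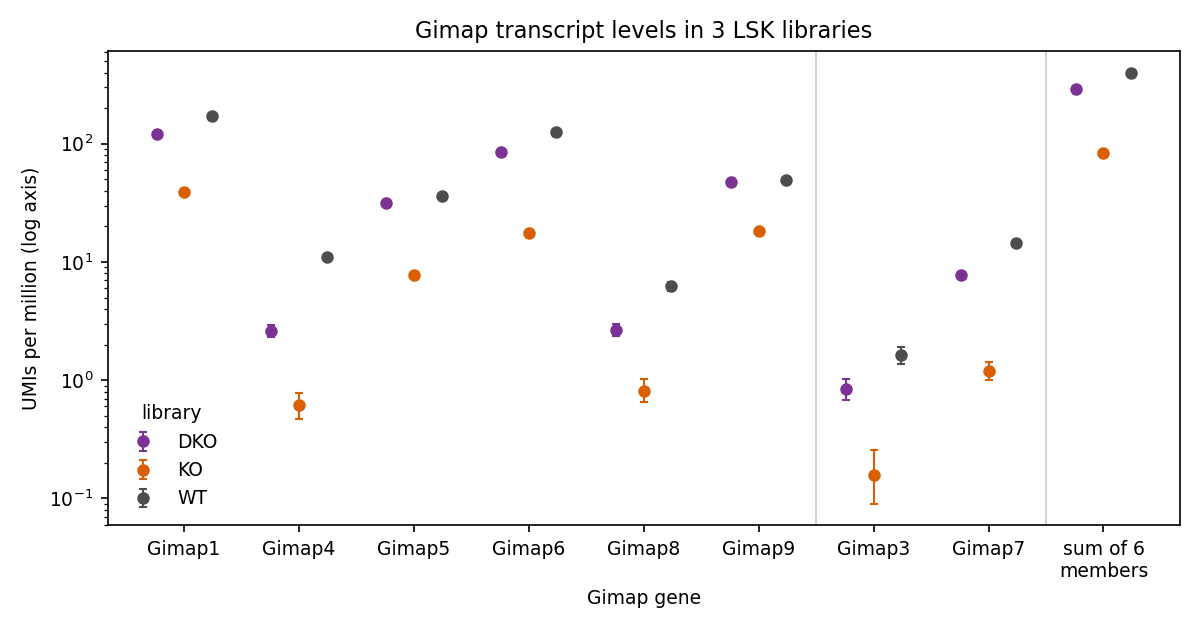
Level of each Gimap gene and of the 6 members summed, in CPM on a log axis, in the DKO, KO and WT libraries (1 library each). Points are library values and bars exact Poisson 95% intervals. KO is lowest for every gene, and DKO lies near WT for Gimap9 (47.7 and 49.2) and well below it for Gimap4 (2.61 and 11.03).

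Cells of all libraries were clustered together without Gimap genes among the variable genes, so that no class was defined by a member. Of 19 clusters, 6 took a class name from their markers, and the others are called here by their leading genes. Levels were read where a library had at least 50 cells of a class. The members stood highest in the stem cell-like class, whose leading genes included Procr, Mllt3 and Mecom, and in the B lineage-like class, led by Igll1 and Ebf1. In stem cell-like cells the summed level was 655 CPM in DKO (624 to 686, 290 cells) and 650 CPM in WT (625 to 675, 515 cells). KO had only 18 such cells and is not compared. In B lineage-like cells the sum was 607 CPM in WT (591 to 623, 679 cells), while DKO had 13 and KO 4 such cells.

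The lymphoid-primed-like class, led by Dntt and Arpp21, had a summed level of 356 CPM in DKO (342 to 370, 540 cells), 343 CPM in KO (307 to 382, 76 cells) and 374 CPM in WT (365 to 384, 1549 cells). The intervals of KO overlapped those of DKO and WT there in the main clustering, while other clusterings gave lower KO/WT ratios (given below). The megakaryocyte progenitor-like class, led by Pf4 and Sdpr, had 195 CPM in DKO (187 to 202, 911 cells), 148 CPM in KO (139 to 158, 401 cells) and 229 CPM in WT (215 to 242, 428 cells). Here the KO interval lay below the others.

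The other unnamed clusters, described by stress, cell cycle or progenitor genes, had summed levels between 263 and 546 CPM in DKO or WT. Levels were lowest in clusters with myeloid or erythroid genes. The cluster led by Prss34 and Csrp3, with basophil-mast and erythroid genes, had 97.7 CPM in DKO and 120 CPM in KO. The cluster led by Mcpt8 and Irf8 had 103 CPM in DKO and 96.0 CPM in WT. Erythroid-like cells had 51.1 CPM in KO (47.6 to 54.8), and cells led by Ms4a3 and Elane had 24.6 CPM in DKO and 16.7 CPM in KO. The cluster led by Vldlr and Ifitm1 had 188 CPM in KO (182 to 193) and supplied 54.9% of the KO library's member UMIs, while it held 24.6% of all KO UMIs. The Ms4a3- and Elane-led cells supplied 9.20% of the member UMIs and 46.2% of all UMIs of KO.

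Gimap4 had the narrowest distribution of the members. In B lineage-like cells it stood at 75.8 CPM in WT (70.3 to 81.6). In stem cell-like cells it stood at 22.7 CPM in DKO (17.3 to 29.3) and 10.7 CPM in WT (7.84 to 14.4), a DKO/WT ratio of 2.11 (1.41 to 3.18). In lymphoid-primed-like cells it was at 4.16 CPM in DKO, 8.19 CPM in KO (8 UMIs) and 5.39 CPM in WT. Megakaryocyte progenitor-like cells had 8 Gimap4 UMIs in DKO, 0 in KO and 5 in WT, and a count of 0 there allows up to 0.505 CPM. The library-wide Gimap4 ratio of DKO to WT was thus below 1, while the ratio within stem cell-like cells was above 1.

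Among the named classes, Gimap1, Gimap5 and Gimap6 stood highest in stem cell-like cells. Gimap5 stood at 85.0 CPM in DKO (74.1 to 96.9) and 80.2 CPM in WT (71.9 to 89.3) among stem cell-like cells, and in WT at 43.3 CPM in B lineage-like, 29.4 CPM in lymphoid-primed-like and 22.3 CPM in megakaryocyte progenitor-like cells. The stem cell-like interval lay above the others, and lymphoid-primed-like and megakaryocyte progenitor-like cells had overlapping intervals. Gimap1 stood at 273 CPM in DKO and 308 CPM in WT among stem cell-like cells, against 20.9 CPM in erythroid-like and 6.09 CPM in Ms4a3- and Elane-led cells of KO. Gimap6 stood at 214 CPM in DKO and 186 CPM in WT among stem cell-like cells. In the other named classes of WT it was at 169 CPM in B lineage-like, 127 CPM in lymphoid-primed-like and 44.6 CPM in megakaryocyte progenitor-like cells. The unnamed cluster led by Zfp36 and Fos had 187 CPM of Gimap6 in WT, near the stem cell-like level.

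Among the named classes of WT, Gimap9 was highest in B lineage-like cells, and its intervals in lymphoid-primed-like and stem cell-like cells overlapped. In WT it stood at 79.6 CPM in B lineage-like cells, 59.1 CPM in lymphoid-primed-like, 49.4 CPM in stem cell-like and 33.3 CPM in megakaryocyte progenitor-like cells. In KO it stood at 20.6 CPM in erythroid-like and 8.21 CPM in Ms4a3- and Elane-led cells. It made up 7.61% of the member UMIs in stem cell-like cells of WT, 40.2% in erythroid-like cells of KO and 49.0% in Ms4a3- and Elane-led cells of KO. Outside the members, Gimap7 was lymphoid-weighted, with 44.2 CPM in B lineage-like, 23.1 CPM in lymphoid-primed-like and 5.01 CPM in stem cell-like cells of WT.

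**Figure D2:**
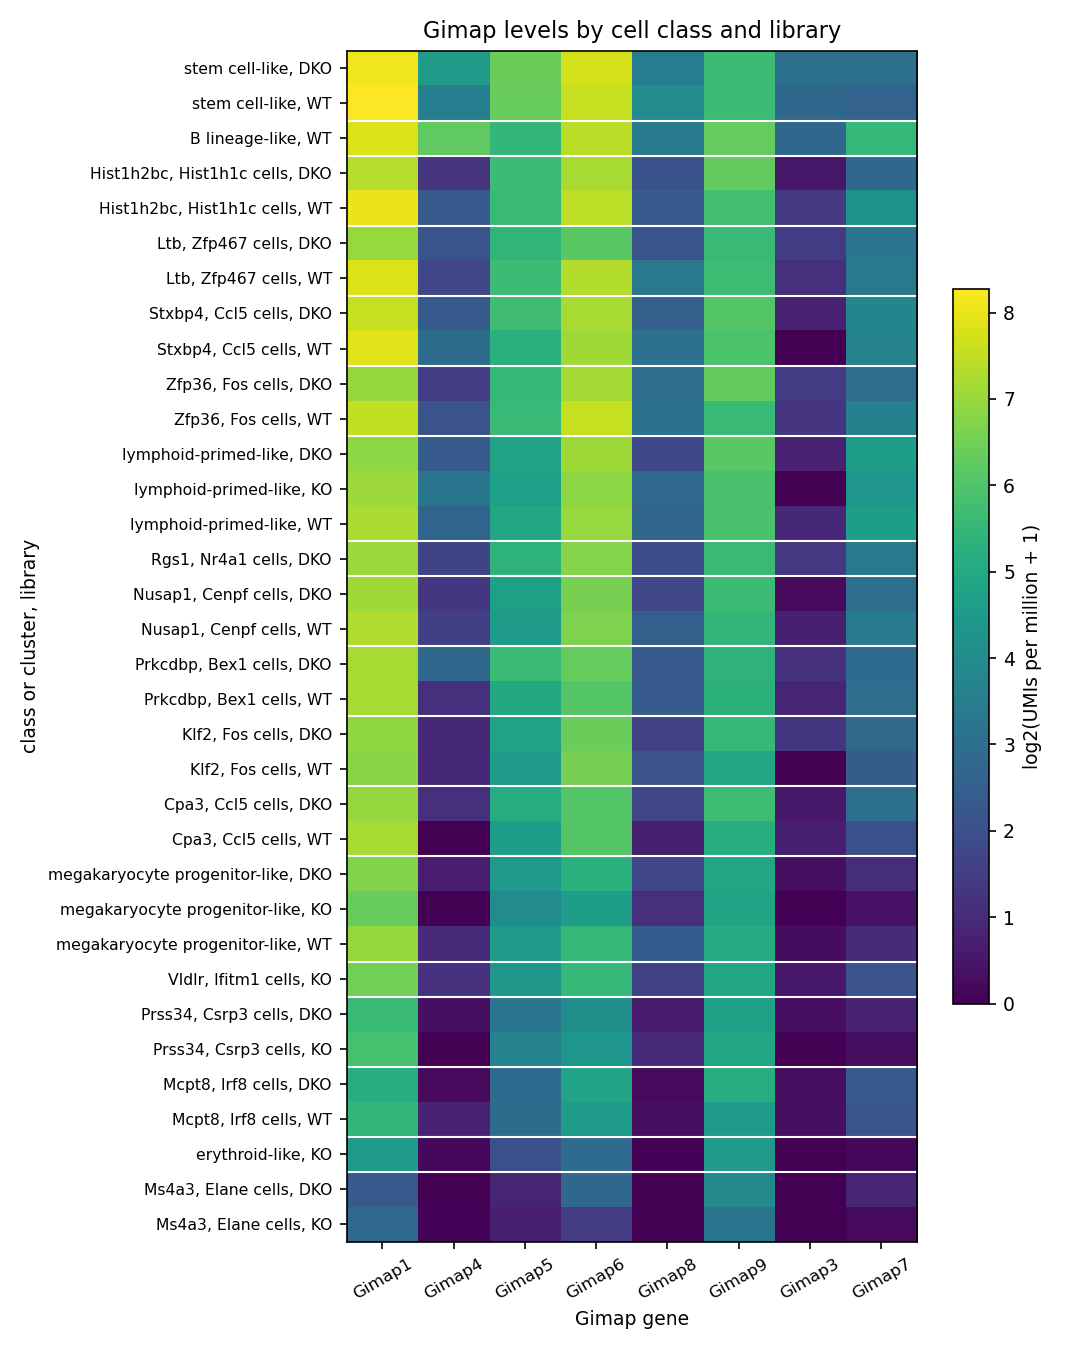
Colour gives log2(CPM + 1) of 8 Gimap genes (columns) in 34 groups of at least 50 cells of 1 class or cluster in 1 library (rows, ordered by the highest summed member level of the class, with DKO above KO above WT). Named classes end in -like, and other clusters carry their 2 leading genes. Gimap4 is bright in B lineage-like and stem cell-like rows, and Gimap9 stands at 20.6 and 8.21 UMIs per 1000000 in the erythroid-like and the Ms4a3- and Elane-led rows of KO.

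Within the 2 named classes that held at least 50 cells of every library, the members' summed KO/WT and DKO/KO ratios were closer to 1 than across whole libraries. In lymphoid-primed-like cells the summed KO/WT ratio was 0.917 (0.819 to 1.02), where the whole libraries gave 0.211. Gimap6 had a KO/WT ratio of 0.900 (0.737 to 1.09) there and Gimap1 one of 0.890 (0.739 to 1.06). All 6 members had KO/WT intervals that include 1. Between DKO and WT, Gimap1 had a ratio of 0.793 (0.732 to 0.858) in these cells and Gimap9 one of 1.19 (1.07 to 1.33). Of the 4 members at 20 CPM or more, 0 were at least 1.5-fold lower in KO, against 5.89% of 4990 genes in the class. The KO cells numbered 76, and other clusterings gave summed KO/WT ratios between 0.653 and 0.808 for this class. All of these lay below the main interval, so equal levels in KO and WT are not read from it.

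In megakaryocyte progenitor-like cells the summed KO/WT ratio was 0.649 (0.593 to 0.709). Gimap6 stood at 23.9 CPM in KO and 44.6 CPM in WT, a ratio of 0.536 (0.431 to 0.665), and Gimap1 at 80.9 CPM in KO and 123 CPM in WT, a ratio of 0.657 (0.582 to 0.742). Gimap9 stood at 27.3 CPM in KO and 33.3 CPM in WT, a ratio of 0.821 (0.656 to 1.03) whose interval includes 1. Past 1.5-fold lower were 2 of the 3 members at the level, against 2.85% of 5152 genes in the class. The summed DKO/KO ratio was 1.31 (1.22 to 1.42) and the DKO/WT ratio 0.851 (0.793 to 0.914). Gimap6 was the member with a DKO/KO ratio past 1.5 at the level, at 1.58 (1.31 to 1.92), where 6.58% of 5210 genes were that much higher.

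In stem cell-like cells DKO and WT had a summed ratio of 1.01 (0.948 to 1.07). Gimap6 had a DKO/WT ratio of 1.15 (1.03 to 1.28) and Gimap1 one of 0.885 (0.807 to 0.971), so these members lay on opposite sides of 1. Gimap5 had a ratio of 1.06 (0.890 to 1.26) and Gimap9 one of 1.01 (0.806 to 1.27). Among unnamed clusters, the one led by Prkcdbp and Bex1 had 6.01 CPM of Gimap4 in DKO (29 UMIs) and 1.18 CPM in WT (10 UMIs), a ratio of 5.09 (2.41 to 11.7).

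**Figure D3:**
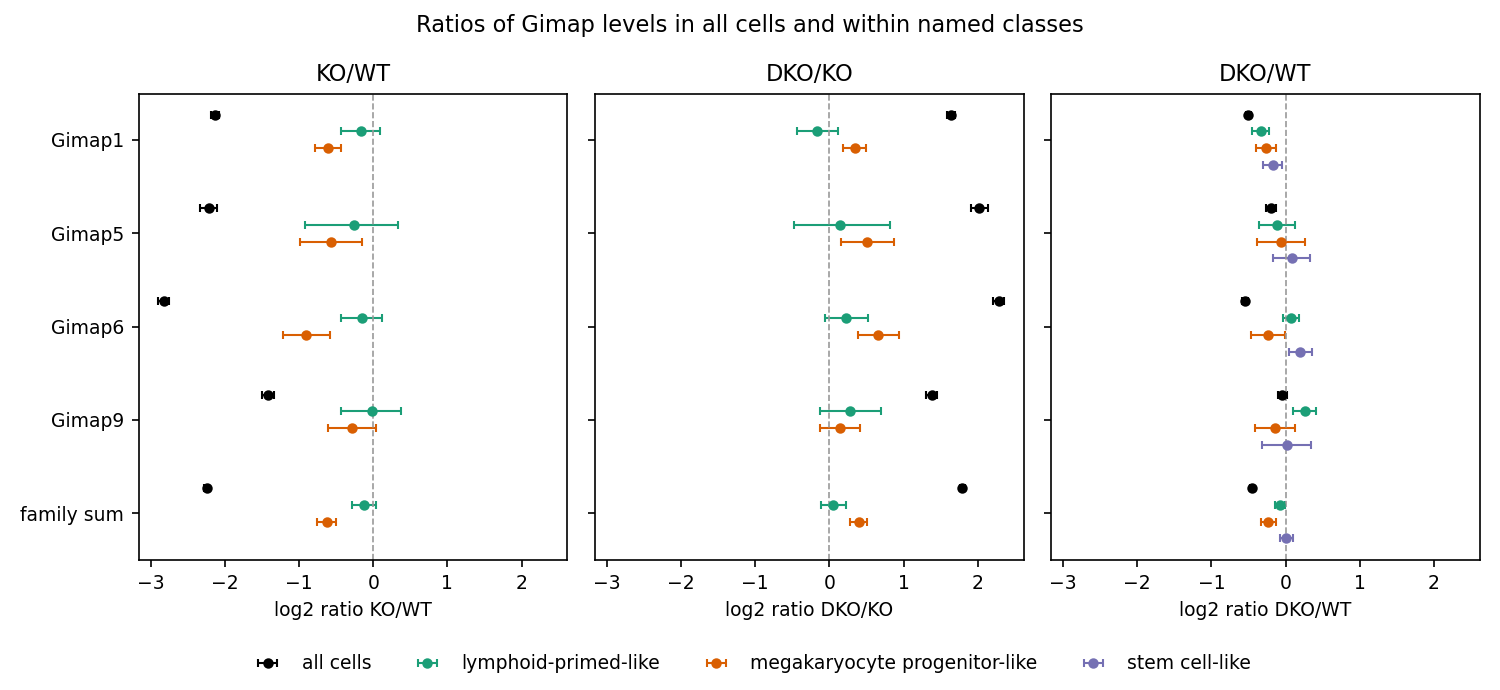
Log2 ratios KO/WT, DKO/KO and DKO/WT of 4 members and of the 6 members summed (rows), in all cells (black) and within 3 named classes (colours), with exact 95% counting intervals and a dashed line at equal levels. All panels share 1 axis. In the main clustering, the KO/WT sum moves from -2.24 in all cells to -0.12 in lymphoid-primed-like and -0.62 in megakaryocyte progenitor-like cells.

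The share of cells with at least 1 UMI of a member was read after each cell was thinned to 3500 UMIs, so that depth per cell is equal. At that depth, 61.9% of DKO cells (exact Clopper-Pearson 95% interval 60.8 to 62.9%), 28.1% of KO cells (26.9 to 29.4%) and 70.0% of WT cells (69.0 to 71.0%) had a UMI of any member. Unthinned shares were 91.9% in DKO, 62.1% in KO and 92.4% in WT. Erythroid-like cells, taken as a low reference for these lymphoid genes, had 16.8% in KO (14.5 to 19.3%) at the thinned depth. Free RNA in the droplets can give UMIs in cells that do not express a gene, and its part here was not tested. In erythroid-like cells of KO the members' sum stood at 51.1 CPM, against 83.9 CPM in the whole KO library. Gimap9 stood at 20.6 CPM against 18.4 CPM, and Elane, for scale, at 32.9 CPM against 1297 CPM. Values in erythroid-like cells are therefore not read as expression or as its absence. The Ms4a3- and Elane-led cells of KO had a lower share, 6.28%, and are not read either way.

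Stem cell-like cells had a UMI of any member in 85.5% of DKO and 88.7% of WT cells, and B lineage-like cells in 82.2% of WT cells. Their medians before thinning were 8826.5, 7896 and 12742 UMIs, against 14493 in erythroid-like cells of KO. In lymphoid-primed-like cells the shares were 66.1% in DKO, 60.5% in KO (48.6 to 71.6%) and 68.8% in WT, with overlapping intervals. In megakaryocyte progenitor-like cells they were 50.1% in DKO, 41.4% in KO (36.5 to 46.4%) and 53.3% in WT. Gimap4 was found in 22.1% of B lineage-like cells of WT (19.0 to 25.4%), in 6.55% of DKO and 3.30% of WT stem cell-like cells, and in 0 of 989 erythroid-like cells of KO, which at the thinned depth allows a share of cells with a UMI of up to 0.303%. Unthinned, 2 of those 989 cells had a Gimap4 UMI. Gimap1 was found in 60.3% of DKO and 67.2% of WT stem cell-like cells, against 7.28% of erythroid-like cells of KO.

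**Figure D4:**
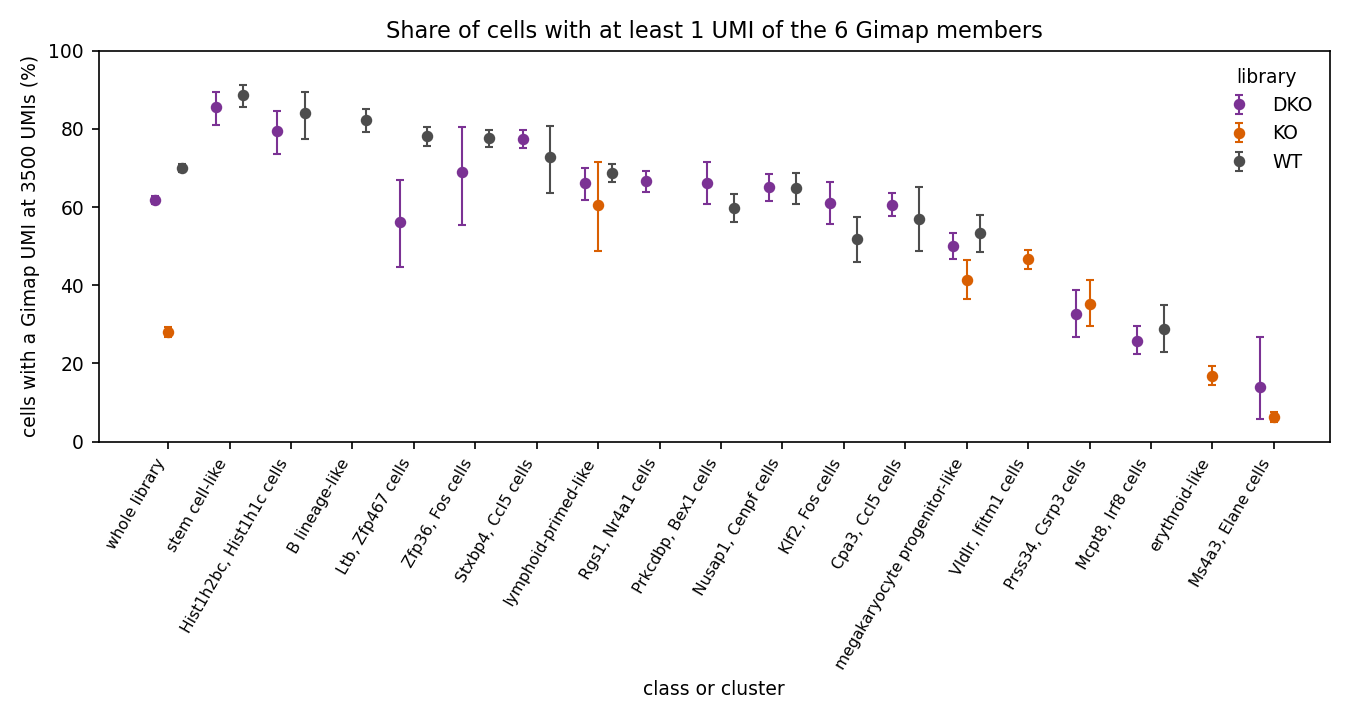
Percent of cells with at least 1 UMI of the 6 members at 3500 UMIs per cell, in whole libraries and in each class or cluster with at least 50 cells of a library (x axis, ordered by the highest share). Points are DKO, KO and WT shares and bars exact 95% intervals. The whole libraries read 61.9%, 28.1% and 70.0%, while the lymphoid-primed-like shares overlap at 66.1%, 60.5% and 68.8%.

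Cells with several members were counted at the same thinned depth. UMIs of at least 2 members were found in 24.4% of DKO, 7.11% of KO and 32.6% of WT cells, and of at least 3 in 5.44%, 1.04% and 9.27%. In the WT library, Gimap6 was found in 42.5% of cells with a Gimap1 UMI and in 29.6% of cells without one. Within stem cell-like cells of WT those shares were 46.0% and 43.8%, close to each other. In stem cell-like cells of DKO they were 56.0% and 41.7%.

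Across the 34 class-by-library groups, the members' log2(CPM + 1) followed each other. Pearson's r was 0.968 between Gimap1 and Gimap5, 0.944 between Gimap5 and Gimap6 and 0.933 between Gimap1 and Gimap6. The lowest among members was 0.630, between Gimap1 and Gimap4. The groups share libraries and their cells share lineage, so these values are a description, and no p is given. Of 4744 genes, the 10 most like the members' sum were Ptprcap (r 0.954), Irf2 (0.938), Tsc22d1 (0.930), Cxxc5 (0.930), Peli1 (0.927), Ltb (0.923), Sigirr (0.910), Arhgap25 (0.910), Zcchc11 (0.909) and Ypel3 (0.901). Ptprcap encodes a partner of the leukocyte phosphatase CD45, and stood at 413 CPM in DKO, 209 CPM in KO and 440 CPM in WT. Over the 13 WT groups alone, 4 of these 10 remained among the closest 10. Gimap4 had other close genes, led by Plekha2 (0.805), Myl10 (0.797) and Sipa1 (0.769), of which 0 of 3 remained over the WT groups alone and 1 of 3 with Spearman correlation.

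Most measured genes next to the Gimap cluster were also lower in KO than in WT. Within 300 kb on either side, 15 other annotated genes were in the table. The 4 that averaged 20 CPM or more were all at least 1.5-fold lower in KO, against the 12.3% of all genes. Tmem176b stood at 167 CPM in KO and 329 CPM in WT, a ratio of 0.509 (0.499 to 0.519), and Tmem176a at 90.2 CPM in KO and 151 CPM in WT, a ratio of 0.595. Repin1, which encodes a zinc finger protein, had a ratio of 0.475 and the predicted gene Gm5111 one of 0.242 (0.230 to 0.255). Below that level, Zfp467 had 5.08 CPM in KO and 29.7 CPM in WT, a ratio of 0.171, and Krba1 a ratio of 0.397. Gm7932 (0.986, 0.659 to 1.48) had an interval that includes 1. Aoc1 went the other way, with 10 UMIs in KO and 0 in WT. Between DKO and WT, Tmem176b and Tmem176a had ratios of 1.19 and 1.15, while Gm5111 had one of 0.764, Repin1 one of 0.851 and Zfp467 one of 0.628. The non-coding 4833403J16Rik lies between Gimap5 and Gimap3 and had a KO/WT ratio of 0.113. Gimap1os is annotated antisense to Gimap1, and the transcript Gm28053 overlaps Gimap7, Gimap1 and Gimap5 on the same strand. Neither was used here, and the counting of overlapping annotations is not given in the sources used here.

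**Figure D5:**
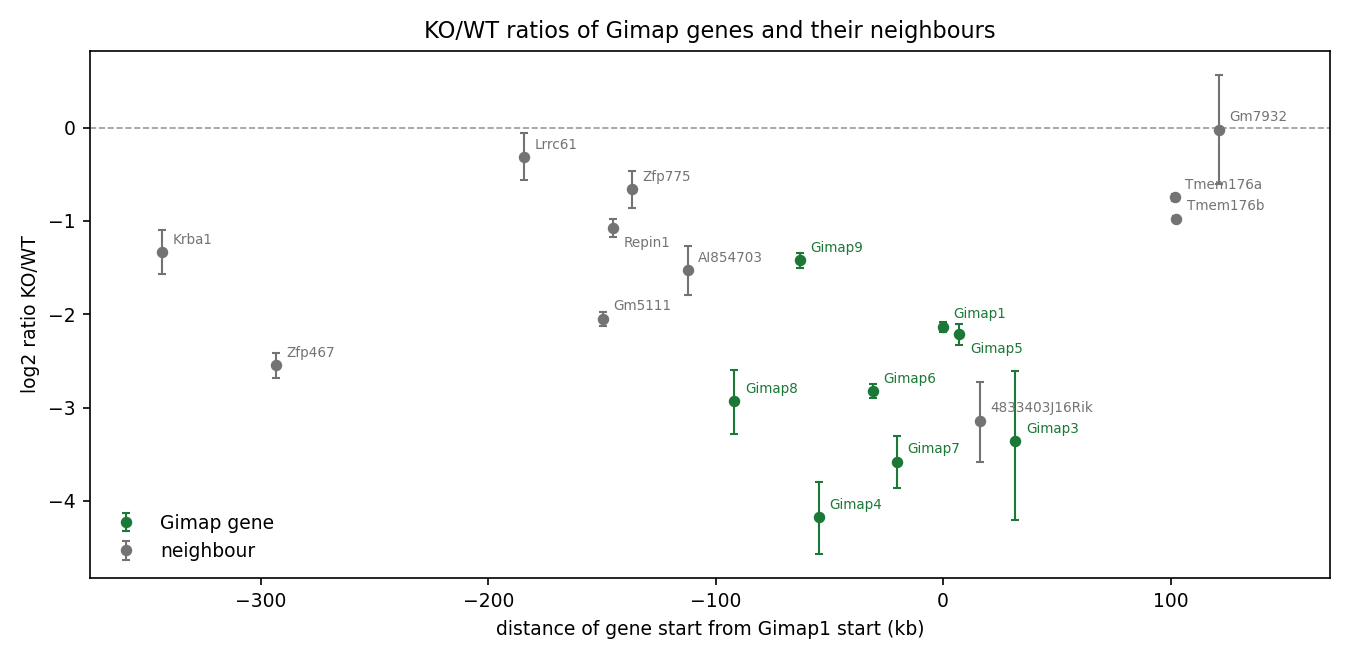
Log2 KO/WT ratio of 8 Gimap genes (green) and 11 neighbours (grey) against the distance of each gene's start from the Gimap1 start in kb, with exact 95% counting intervals. Genes with 3 or fewer UMIs in KO or WT are not drawn. The Gimap genes lie between -1.42 (Gimap9) and -4.17 (Gimap4), and 10 of the 11 neighbours lie below 0 with their interval. The share of all genes whose interval lies below 0 was not counted.

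Genes known to work with GIMAPs or in the same survival pathways lay on both sides of equal levels. Of 15 such genes, 12 averaged 20 CPM or more over KO and WT, of which 2 were at least 1.5-fold higher in KO, 5 lower and 5 neither, where 8.85% of all genes at that level were higher and 12.3% lower. Mcl1, the survival protein placed with GIMAP5, stood at 53.9 CPM in DKO, 50.7 CPM in KO and 80.2 CPM in WT, a KO/WT ratio of 0.633. The autophagy gene Gabarapl1 had a KO/WT ratio of 0.644, and Gsk3b, a kinase studied with GIMAP5, one of 0.629. The lower ratios named here lie near the 1.5-fold line. The list was not recounted with TMM scaling, with which 411 in place of 630 of all genes were lower in KO. The death effector Bak1 was higher in KO, at 77.3 CPM in KO and 45.3 CPM in WT, a ratio of 1.71. The median log2 KO/WT ratio of the 12 was -0.38, against 0.02 for all genes at that level.

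Of 22 lymphocyte homeostasis genes, 11 averaged 20 CPM or more over KO and WT, of which 10 were at least 1.5-fold lower in KO and 0 higher, against 12.3% and 8.85% of all genes, with a median log2 ratio of -1.01. Klf2, a quiescence factor of lymphocytes, stood at 69.7 CPM in DKO, 12.0 CPM in KO and 129 CPM in WT. The chromatin organiser Satb1 stood at 70.6, 35.4 and 114 CPM, and the receptor genes Cd69 at 49.2, 33.1 and 106 CPM and Cd27 at 123, 54.2 and 138 CPM. These 4 were named for their KO/WT ratios. Klf2 and Cd69 are also among the leading genes of the cluster led by Zfp36 and Fos, which held 58 DKO, 18 KO and 1444 WT cells, and the part of that cluster in the difference was not tested. Between DKO and KO, 6 of 12 were at least 1.5-fold higher in DKO and 0 lower, against 13.4% higher of all genes.

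Mature lymphocytes and endothelium also express Gimap genes, and their markers were read beside the members. Of the 15 T, NK and innate lymphoid markers, 13 were in the table and summed to 486 CPM in DKO, 423 CPM in KO and 349 CPM in WT, of which Nkg7 alone made up 422, 403 and 280 CPM. The defining Cd3d had 10 UMIs in DKO, 0 in KO and 7 in WT, and 0 in stem cell-like cells of DKO and of WT. Of 12 endothelial genes, 11 were in the table, and the 2 that averaged 20 CPM or more, Egfl7 and Pecam1, had KO/WT ratios of 0.426 and 0.598. The endothelial marker genes, 7 of 8 of them in the table, summed to 25.5 CPM in DKO, 10.3 CPM in KO and 26.8 CPM in WT. Emcn stood at 11.4 CPM in DKO, 3.19 CPM in KO and 12.4 CPM in WT, and Tie1 at 12.2, 3.59 and 12.0 CPM, so both were lowest in KO. In stem cell-like cells Emcn stood at 37.7 CPM in DKO and 27.7 CPM in WT, and Tie1 at 35.4 CPM in DKO and 46.1 CPM in WT. The part of these genes in the members' difference was not tested. Kdr stood at 0.173 CPM in DKO, 0.316 CPM in KO and 0.408 CPM in WT, and Cldn5 at 0, 0.178 and 0.747 CPM.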

How the data were processed

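Gene expression was measured in single LSK cells of 3 libraries, 1 per genotype. The deposited matrices hold UMI counts per gene and cell, and a second table holds natural log values normalized by the authors. Per the submitters' processing notes, bcl2fastq, Cell Ranger and Seurat were used with the mm10 build. The deposited natural log values equalled ln(1 + 10000 × count / cell total) within 0.001 in all 1424765 entries checked, so the deposited counts were used throughout. How overlapping or antisense genes were counted is not given in the sources used here, and reads come from transcript 3′ ends, so a level is compared only with levels of the same gene. A gene's share of the member UMIs is compared only between classes.

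Counts were summed per library or class and given as CPM with exact Poisson intervals, ratios with exact conditional binomial intervals and shares with Clopper-Pearson intervals. UMIs remove PCR copies, and intervals cover counting error only. A gene was called at 1.5-fold or more where its mean over a pair was at least 20 CPM, and a count of 0 was given a floor of 3 counts. Clustering used scanpy 1.11.5 with igraph 0.11.9, without Gimap and cell cycle genes, and classes were named from listed markers. Doublet calls marked 4 DKO, 39 KO and 2 WT cells, too few to use, so no doublets were removed in the main values. On simulated KO/WT counts of 14721 genes, 200 of 200 changed and 0 of 5044 unchanged genes were called, and 189 of 200 intervals held the true ratio. The planted changes were all larger than 1.5-fold, and the counts had Poisson noise alone. The simulation thus checks the calculation, and does not measure how often calls between single libraries are wrong. TMM factors came from edgeR 4.0.16 in R 4.3.3, and Python 3.11.15, numpy 2.4.6, scipy 1.17.1, pandas 2.3.3 and matplotlib 3.10.9 were used elsewhere.

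The members and lists were chosen with earlier results of these data known. Genes of a list were named as the up to 4 at the level with the largest ratio, with the members, defining markers and the 10 genes most like the members' sum also named.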

Additional observations from a re-analysis of the deposited data

Results flagged for a closer look

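Some ratios lay on opposite sides of 1 in different clusters. Gimap6 had a DKO/WT ratio of 1.20 in the cluster led by Prkcdbp and Bex1 and of 0.442 in the cluster led by Ltb and Zfp467. The members' summed DKO/WT ratio was 1.13 and 0.584 in the same clusters. Gimap1 had a DKO/KO ratio of 1.27 in megakaryocyte progenitor-like cells and of 0.809 in the cluster led by Prss34 and Csrp3. The summed DKO/KO ratio was 1.31 and 0.816 in the same cells. With 1 library per genotype, the difference was not tested in any of these.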

How the results depend on the processing

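No paired analysis was possible because each genotype had 1 library, and no library could be left out. The members' summed ratios are given in the order KO/WT, DKO/KO and DKO/WT. They were 0.234, 3.02 and 0.709 with TMM scaling, and 0.237, 3.01 and 0.714 with median-of-ratios scaling. Without the 50 most abundant genes in the total, KO/WT was 0.202 and DKO/WT 0.708. They were 0.275, 2.73 and 0.750 with equal weight per cell, and 0.276, 2.72 and 0.751 with cells thinned to 3500 UMIs. Without the erythroid-like, mature neutrophil-like and B lineage-like classes they were 0.244, 3.20 and 0.779. No neutrophil progenitor, monocyte-dendritic or basophil-mast class was named, so clusters with those markers were kept there. The next settings, up to UMIs per cell, were chosen after seeing the data. Without lineage classes and lineage-marker clusters the ratios were 0.489, 1.70 and 0.833, and 0.524, 1.59 and 0.833 when the Vldlr- and Ifitm1-led cluster was also left out. As UMIs per cell they were 0.414, 2.25 and 0.932. Weighted to WT cluster shares they were 0.881, 1.06 and 0.937, over 4 clusters with 21.4% of DKO, 44.2% of KO and 25.1% of WT cells and as few as 21 WT cells in a cluster.

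Members past 1.5-fold numbered 0 for KO/WT and 0 for DKO/KO with that weighting, and 6 for DKO/KO with no level filter. For DKO/WT they numbered 1 with TMM scaling, 1 without the 50 most abundant genes, 1 at 5 CPM and 2 with no filter. At the lower fold threshold tried, 2 members were past it. Of all genes, 119 of 5306 were at least 1.5-fold lower in DKO with TMM scaling, and 120 of 5306 without the 50 most abundant genes. At 5 CPM, 3.55% of 9205 genes were. The share of all genes is not given for the weighting, no filter or the lower threshold, so those counts are a description only. Gimap5 DKO/WT reversed to 1.11 as UMIs per cell, and Gimap8 DKO/KO to 0.987 without the lineage and Vldlr-led clusters. With the weighting, Gimap4 KO/WT reversed to 1.43, Gimap1 DKO/KO to 0.944, Gimap4 DKO/KO to 0.529, Gimap8 DKO/KO to 0.485 and Gimap6 DKO/WT to 1.04. Of 198 member ratios recomputed, 64 stayed within the main interval, 127 moved outside it and 7 reversed. Gimap9 DKO/WT, whose main interval includes 1, is not counted as reversed, though it was above 1 in 5 of 11 settings. The cause was not tested.

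By class, at resolution 0.6 the stem cell-like sum was 606 CPM in DKO and 520 CPM in WT, a ratio of 1.16, and no megakaryocyte progenitor-like class was found. With Gimap genes kept it was 533 CPM in DKO and 464 CPM in WT, a ratio of 1.15, and with cell cycle genes kept it was 697 CPM in DKO. The lymphoid-primed-like sum was 388 CPM in DKO and 423 CPM in WT at resolution 0.6 (KO/WT 0.808), and 371 CPM in DKO and 438 CPM in WT at resolution 1.5 (KO/WT 0.784, DKO/WT 0.847). It was 409 CPM in DKO and 482 CPM in WT with cell cycle genes kept (KO/WT 0.653, DKO/KO 1.30, DKO/WT 0.848), and 408 CPM in DKO and 430.0 CPM in WT with Gimap genes kept (KO/WT 0.790, DKO/KO 1.20). With cell cycle genes kept the megakaryocyte progenitor-like sum was 206 CPM in DKO and 246 CPM in WT. The B lineage-like sum was 584 CPM in WT at resolution 1.5. Shares of cells were 74.2% in DKO, 37.4% in KO and 81.4% in WT at 5500 UMIs, and 91.9%, 62.1% and 92.4% unthinned. Of the 10 genes most like the members, 4 remained with WT groups alone and 5 with Spearman correlation. Depth limits Gimap4 and Gimap8, which had 62 and 83 UMIs in KO.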
